A study of Danio rerio with 13 samples.

Results

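Genes of myelin and of the glial cells that make it were read in RNA sequencing counts from zebrafish larvae. The 9 genes were taken by symbol from the 32417 entries of the count table. They comprise mbpa, mbpb, mpz, plp1a and plp1b, which encode proteins of the myelin sheath, the transcription factor genes olig1, olig2 and sox10, and the receptor gene erbb3b. Each symbol matched 1 entry, and all 9 were among the 22158 genes kept after the filter on low counts. The lowest count of any of them in any library was 21, of olig1, so each gene was detected in all 13 libraries.

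The libraries form 3 groups. One holds 3 libraries labelled as the aldh3b1 knockout (ALDH3B1 -/-, KO), which the study made with CRISPR and which were not treated. Another holds 5 libraries of aldh3b1+/+ larvae treated with 2-HD, an agent that the labels do not spell out. The third holds 5 libraries of untreated aldh3b1+/+ larvae (WT). All 3 groups carry the transgene of the Tg(fli1:EGFP) line, in which the fli1 promoter drives EGFP in endothelial cells. Larval age, the dose and length of treatment, a vehicle, the number of knockout lines and the pooling of larvae are not given in the sources used here. The p-values therefore measure the spread between libraries, which may be technical, and an effect of a vehicle cannot be told apart from that of 2-HD. Libraries are named by group and by the number in their description label. The library WT 3 bears the number 1 in its title.

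Myelin is a stack of glial membrane wrapped around axons, laid down by oligodendrocytes in the brain and spinal cord and by Schwann cells in peripheral nerves. Myelin basic protein holds the inner faces of the membrane together, and myelin protein zero (mpz) and proteolipid protein bring the outer faces together. In fish mpz is found in central as well as peripheral myelin. Olig2 specifies the progenitors of the ventral spinal cord that form motor neurons and oligodendrocytes, olig1 acts in oligodendrocyte differentiation, and sox10 acts in the neural crest, its pigment cells and both kinds of myelinating glia. Erbb3 is a receptor for the axonal signal neuregulin, and zebrafish need erbb3b for the migration and myelination of Schwann cells.

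Totals were 19066393 to 19332225 counts in KO, 19339056 to 19482661 with 2-HD and 17975289 to 19009200 in WT. The targeted gene aldh3b1 averaged 5.19 ± 0.608 CPM (counts relative to library size, after scaling between libraries) in KO and 6.104 ± 1.22 CPM in WT (SD, n = 3 and 5), so its level does not check the KO label (edgeR adjusted p = 0.474). With 2-HD it averaged 10.2 ± 1.99 CPM (SD, n = 5). That was higher than in WT (log2 fold change 0.73, edgeR adjusted p = 0.00179). In KO against 2-HD the log2 fold change was -0.97 (edgeR adjusted p = 0.0152). On the first principal component the library 2-HD 1 lay at 8.03 and the other 2-HD libraries at 38.8 to 49.6, beside KO libraries at -9.31 to 9.86 and WT libraries at -52.0 to -16.2. It also stood apart on the second component, as did WT 14. Values without 2-HD 1 are given where it changes a result.

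With 2-HD, 7 of the 9 genes were called, 5 lower and 2 higher than in WT. The 5 falls were those of mpz, mbpa, plp1b, olig1 and olig2, and the 2 rises those of sox10 and erbb3b. Calls were made where edgeR's quasi-likelihood test gave a p under 0.05 after Benjamini-Hochberg adjustment over all genes. By this rule 42.4% of all genes were called with 2-HD, 22.7% higher and 19.7% lower. At an unadjusted p under 0.05 there were 8 of the 9 genes, beside 50.1% of all genes. The knockout gave 0 calls among the 9 genes in this edgeR test, against 5.97% of all genes (4.1% higher and 1.86% lower), and 1 at an unadjusted p under 0.05, against 24.8%. DESeq2 called 1 of the 9 in the knockout, beside 2363 of 29084 genes. The median log2 fold change of the 9 genes was -0.34 with 2-HD and -0.09 in KO, beside medians over all genes of 0.02 and 0.0014.

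**Figure D1:**
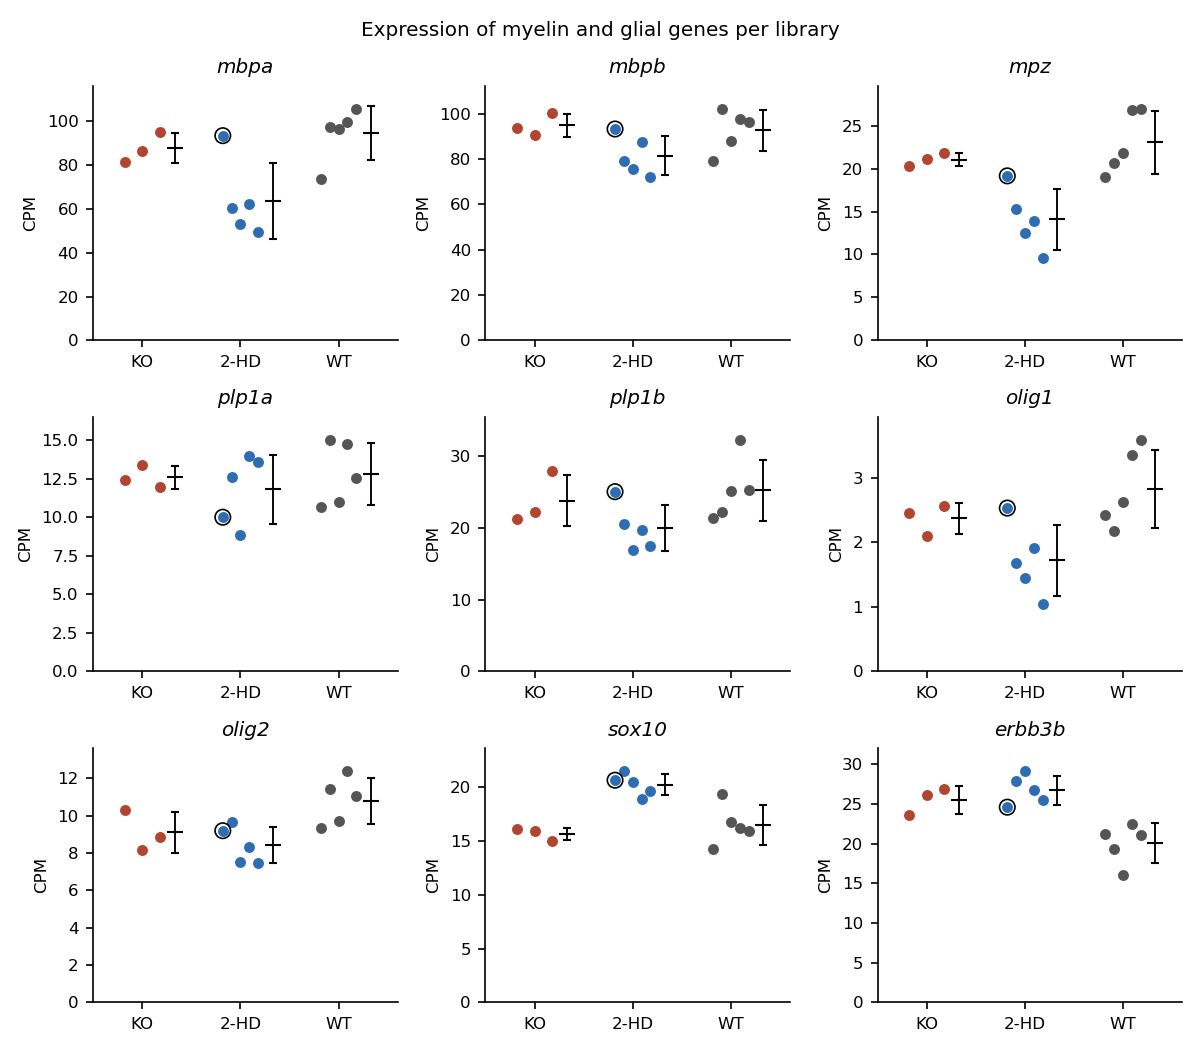
Expression of the 9 genes in CPM, 1 point per library, with the group mean and SD as a bar to the right of the points (n = 3 KO, 5 2-HD and 5 WT libraries). The circled point is 2-HD 1, which lies at or above the lowest WT library for mbpa, mbpb, mpz, plp1b and olig1, while the other 2-HD libraries lie below every WT library for mbpa, mpz, plp1b and olig1.

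Among the sheath genes, mpz had the largest fitted fall with 2-HD. Its level was 19.1, 15.3, 12.5, 13.9 and 9.61 CPM in 2-HD libraries 1 to 5, against 19.03, 20.6, 21.8, 26.8 and 26.9 CPM in WT libraries 3, 5, 10, 13 and 14. The groups overlapped through 2-HD 1 and WT 3 alone. The fall was 0.71 on the log2 scale (fold change 0.612; log2 fold change -0.71, SE 0.15, 95% interval -1.03 to -0.39, edgeR adjusted p = 0.00183). It was called in all 22 alternative fits, at log2 fold changes of -0.84 (without 2-HD 1, adjusted p = 0.000238) to -0.60.

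Myelin basic protein is encoded by a pair of genes in zebrafish. The level of mbpa was 93.3, 60.2, 53.0, 62.1 and 49.5 CPM in 2-HD libraries 1 to 5, against 73.5, 97.5, 96.5, 99.6 and 105 CPM in WT libraries 3, 5, 10, 13 and 14. Apart from 2-HD 1, which lay within the WT range, treated libraries were below all WT libraries. The gene fell with 2-HD (log2 fold change -0.57, SE 0.15, 95% interval -0.89 to -0.26, adjusted p = 0.00636). Without 2-HD 1 the log2 fold change was -0.75 (adjusted p = 8.64e-05). With other single libraries left out, edgeR's adjusted p reached 0.0195. The call of mbpa held in all 22 alternative fits, with adjusted p-values up to 0.0401.

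For mbpb the values were 93.3, 79.0, 75.6, 87.4 and 72.1 CPM in 2-HD libraries 1 to 5, against 79.3, 102, 88.1, 97.8 and 96.3 CPM in WT libraries 3, 5, 10, 13 and 14. The groups overlapped, and the log2 fold change of -0.19 (SE 0.08, 95% interval -0.37 to -0.0054) did not pass the test (adjusted p = 0.0905). It passed without 2-HD 1 (-0.24, adjusted p = 0.0296) and without WT 3 (-0.24, adjusted p = 0.0318).

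The proteolipid protein pair differed in its calls. The level of plp1b was 25.1, 20.6, 17.0, 19.7 and 17.5 CPM in 2-HD libraries 1 to 5, against 21.4, 22.3, 25.1, 32.3 and 25.4 CPM in WT libraries 3, 5, 10, 13 and 14. It fell with 2-HD by a margin close to the threshold (log2 fold change -0.34, SE 0.13, adjusted p = 0.0462). The call was lost without 1 library in 8 cases, with adjusted p-values of 0.0564 (without KO 3), 0.0672 (2-HD 2), 0.113 (2-HD 3), 0.0822 (2-HD 4), 0.108 (2-HD 5), 0.0741 (WT 10), 0.134 (WT 13) and 0.0698 (WT 14). Without 2-HD 1 its log2 fold change was -0.43 (adjusted p = 0.0104). Over the 22 alternative fits, the call of plp1b was lost in 11. Levels of plp1a ran from 8.87 to 14.0 CPM with 2-HD and from 10.7 to 15.0 CPM in WT, and its log2 fold change of -0.12 (95% interval -0.41 to 0.17) did not pass (adjusted p = 0.520).

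Of the transcription factor genes, olig1 and olig2 were lower with 2-HD. They stand next to each other in the gene order of assembly GRCz12tu, with 0 protein-coding genes of the count table between them. Expression of olig1 was low, at 2.53, 1.68, 1.45, 1.91 and 1.04 CPM in 2-HD libraries 1 to 5 (21 to 49 counts), against 2.42, 2.18, 2.62, 3.34 and 3.58 CPM in WT libraries 3, 5, 10, 13 and 14 (40 to 62 counts). As for mpz, 2-HD 1 alone reached the WT range. The gene fell (log2 fold change -0.72, SE 0.22, 95% interval -1.18 to -0.25, adjusted p = 0.0165), and without 2-HD 1 by 0.89 on the log2 scale (adjusted p = 0.00324). With other single libraries left out, edgeR's adjusted p reached 0.0428, and 2 of the 22 alternative fits lost the call.

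Expression of olig2 was 9.19, 9.66, 7.53, 8.29 and 7.48 CPM in 2-HD libraries 1 to 5, against 9.35, 11.4, 9.72, 12.4 and 11.03 CPM in WT libraries 3, 5, 10, 13 and 14. Here 2-HD 2 alone overlapped the WT range. It fell by less than olig1 in the fit (log2 fold change -0.35, SE 0.11, 95% interval -0.59 to -0.12, adjusted p = 0.0170). With 1 library left out, edgeR's adjusted p reached 0.0495, and 2 of the 22 alternative fits lost the call of olig2. Genes of motor neurons and their progenitors, which olig2 also marks, moved beside it: 8 of 12 fell with 2-HD and 4 did not pass. Of all genes, 19.7% were lower. Without 2-HD 1, 9 of the 12 fell, beside 4643 of 22060 genes. With all 13 libraries, the smallest adjusted p-values of the 12 were those of lhx4 (log2 fold change -0.78), nkx6.1 (-0.66) and slc5a7a (-0.69). The genes lhx4 and nkx6.1 are homeobox genes of the ventral cord, and slc5a7a is the choline transporter gene of cholinergic neurons. The 12 genes summed to 322 to 376 CPM with 2-HD and 365 to 438 CPM in WT, with none at 0. Log2 fold changes were above 0 for 2 of the 12. One was ache, the gene with the highest level, at 149 CPM with 2-HD and 130 CPM in WT. It did not pass (0.21, edgeR adjusted p = 0.0516) and was named after its value was seen. The fall was not particular to motor neuron genes: of 26 genes of neurons at large, 24 fell with 2-HD. The part of the 12 motor neuron genes in the olig2 result was not tested.

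Expression of sox10 moved the other way. It was 20.6, 21.5, 20.4, 18.9 and 19.6 CPM in 2-HD libraries 1 to 5, against 14.2, 19.4, 16.7, 16.2 and 15.9 CPM in WT libraries 3, 5, 10, 13 and 14. WT 5 alone overlapped the treated range. The rise was called (log2 fold change 0.29, SE 0.08, 95% interval 0.12 to 0.46, adjusted p = 0.00849). The call was lost in 2 of the 22 alternative fits, among them the fit with a block for replicate number. Beside sox10, of 27 genes of the neural crest and pigment cells, 10 rose with 2-HD, 3 fell and 14 did not pass. That is a share of 48.1% called beside 42.4% of all genes. Without 2-HD 1, 8 rose and 4 fell, beside 5325 and 4643 of 22060 genes. The median log2 fold change of the list was then 0.14 in place of 0.22. Among the rises were tyr, the tyrosinase gene of melanin synthesis (log2 fold change 0.66), csf1ra, a receptor gene of yellow pigment cells and macrophages (1.13), and kita, a receptor gene of melanophores (0.86). The falls were those of ret (-0.24), a receptor gene of enteric neurons, tfap2e (-0.45) and phox2bb (-0.22). The list summed to 1172 to 1486 CPM with 2-HD and 1056 to 1141 CPM in WT, with none at 0, and its part in the sox10 result was not tested.

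The receptor gene erbb3b had no overlap between the groups. Its level was 24.6, 27.9, 29.2, 26.7 and 25.5 CPM in 2-HD libraries 1 to 5, against 21.3, 19.3, 16.0, 22.5 and 21.1 CPM in WT libraries 3, 5, 10, 13 and 14. It rose 1.33-fold (log2 fold change 0.42, SE 0.09, 95% interval 0.22 to 0.61, adjusted p = 0.00200). The call was lost in 1 of the 22 alternative fits. Of all genes, 25.7% had no overlap between these groups.

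**Figure D2:**
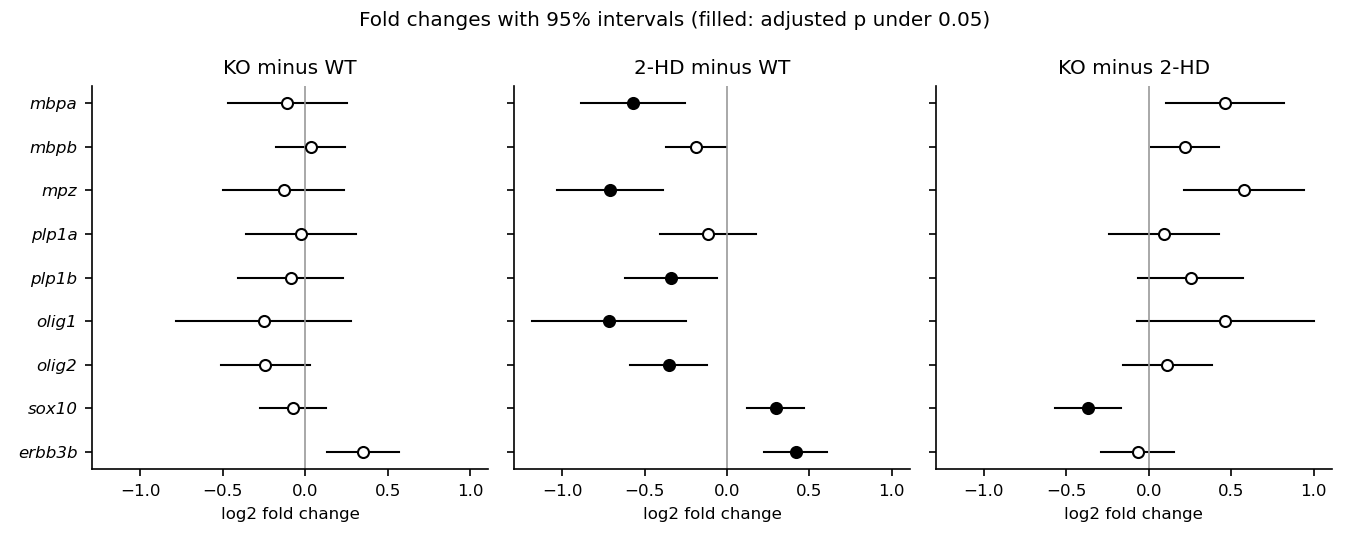
Log2 fold changes of the 9 genes with 95% intervals in the 3 comparisons, filled where the adjusted p is under 0.05. The 2-HD panel has 7 filled points, KO against WT has none, and KO against 2-HD has 1, sox10 at -0.37.

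In the knockout, levels of the sheath genes lay within or close to the WT spread. The level of mbpa was 81.5, 86.5 and 94.9 CPM in KO libraries 2, 3 and 7, a log2 fold change of -0.11 from WT (95% interval -0.47 to 0.25, edgeR adjusted p = 0.739). That of mpz was 20.2, 21.1 and 21.8 CPM, with -0.13 (-0.50 to 0.24, adjusted p = 0.682). A p that misses the threshold does not show that the groups are alike, and the interval of mpz still includes a fall of 0.50 on the log2 scale. Levels in KO libraries ran between 90.4 and 101 CPM for mbpb, 21.3 and 27.9 CPM for plp1b, and 11.997 and 13.4 CPM for plp1a. The log2 fold changes of mbpb, plp1b and plp1a were 0.03, -0.09 and -0.02, each with an adjusted p of 0.765 or above.

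The lineage genes of the knockout were as follows. Expression of olig2 was 10.3, 8.15 and 8.87 CPM in KO libraries 2, 3 and 7 against 9.35 to 12.4 CPM in WT, and the log2 fold change of -0.24 (95% interval -0.51 to 0.03) did not pass (adjusted p = 0.251). That of olig1 was 2.46, 2.10 and 2.56 CPM, with -0.25 (-0.78 to 0.28, adjusted p = 0.570). Expression of sox10 was 16.1, 15.9 and 15.0 CPM, with -0.07 (-0.27 to 0.12, adjusted p = 0.667). In the gene order of GRCz12tu sox10 lies on the chromosome of aldh3b1, with 547 of its 953 listed genes between them, and the other 8 genes lie on other chromosomes.

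The gene nearest to a call in KO was erbb3b, at 23.6, 26.2 and 26.9 CPM in KO libraries 2, 3 and 7 against 16.0 to 22.5 CPM in WT. The groups did not overlap, which held for 15.5% of all genes. The log2 fold change was 0.35 (SE 0.10, 95% interval 0.13 to 0.57, unadjusted p = 0.00411 and adjusted p = 0.0570 in the edgeR fit). It was the 1 gene of the 9 with an unadjusted p under 0.05, and DESeq2 called it (adjusted p = 0.0334). In edgeR it was called without 2-HD 1 (adjusted p = 0.0485), which enters through the shared estimate of spread, and without WT 3 (adjusted p = 0.0496), but its adjusted p was 0.175 without KO 3 and 0.224 without KO 7, and up to 0.756 over all alternatives.

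Set directly against each other, the knockout and the treated larvae differed in 1 call of 9, beside 6.98% of all genes (3.93% higher and 3.06% lower in KO), and in 4 at an unadjusted p under 0.05, beside 25.6%. Expression of sox10 was lower in KO, at 15.0 to 16.1 CPM, than with 2-HD, at 18.9 to 21.5 CPM, without overlap (log2 fold change -0.37, SE 0.09, 95% interval -0.57 to -0.17, edgeR adjusted p = 0.0324). The call was lost without any 1 of the KO libraries 2, 3 and 7 (adjusted p = 0.0844, 0.104 and 0.103) or of the 2-HD libraries 2, 3, 4 and 5 (0.0693, 0.0672, 0.0547 and 0.0630).

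The next were mpz (0.58, 95% interval 0.21 to 0.94, adjusted p = 0.0554), which also had no overlap, as did 17.8% of all genes, and mbpa (0.46, 0.10 to 0.82, adjusted p = 0.105), both on the side of higher in KO. Without 2-HD 1 both were called higher in KO than with 2-HD, mbpa at 0.64 (adjusted p = 0.00394) and mpz at 0.72 (adjusted p = 0.00830). With other single libraries left out, edgeR's adjusted p reached 0.255 for mbpa and 0.142 for mpz. Of the 22 alternative fits, 2 called mbpa and 3 called mpz. For erbb3b the log2 difference was -0.07 (95% interval -0.29 to 0.15, adjusted p = 0.722). Ordered by mean, mbpa, mpz, plp1a, plp1b, olig1 and olig2 stood lowest with 2-HD, then KO, then WT. The order for mbpb was 2-HD, WT, KO, for sox10 it was KO, WT, 2-HD, and for erbb3b it was WT, KO, 2-HD. Neighbours in these orders passed the test in 1 case, sox10 between 2-HD and WT.

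Shares of reads within gene pairs were compared to see whether the genes of a pair moved alike. A share counts reads, not molecules, since the genes differ in length. Reads of mbpa made up 43.3 ± 3.85% of the reads of mbpa and mbpb with 2-HD and 50.4 ± 1.92% in WT (SD, n = 5 each). In single libraries the share was 50.0, 43.3, 41.2, 41.6 and 40.7% in 2-HD libraries 1 to 5, against 48.1, 48.9, 52.3, 50.5 and 52.2% in WT libraries 3, 5, 10, 13 and 14. The exact binomial 95% interval of 2-HD 1, from 48.4 to 51.7%, stood clear of those of the other treated libraries, which reached 45.1% at most. Such intervals cover counting error only.

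The difference of -7.03 percentage points gave an unadjusted p of 0.0238 in an exact two-sided permutation test, but an adjusted p of 0.214 over the 9 tests of shares (3 pairs in 3 comparisons). Without 2-HD 1 it was -8.70 points without overlap, with an adjusted p of 0.0714, the smallest that 1 share can reach in this exact test. In KO the share was 46.5, 48.9 and 48.6% (difference from WT -2.39 points, exact adjusted p = 0.289). The share of plp1a was 37.2 ± 6.03% with 2-HD and 33.7 ± 3.84% in WT, and that of olig1 in olig1 and olig2 16.7 ± 3.61% and 20.7 ± 3.05% (SD, n = 5 each). The smallest p the exact test can give is 0.00794 with 5 libraries a group, which over 9 tests adjusts to 0.0714, and 0.0179 in comparisons with KO, so no single share could pass by itself. Whether reads that match both genes of a pair were counted is not given in the sources used here.

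**Figure D3:**
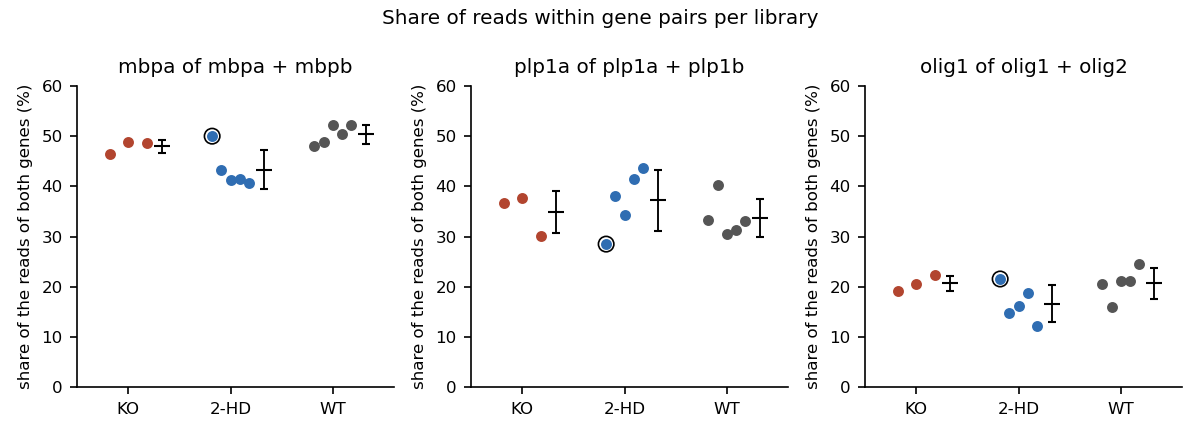
Share of reads of the first gene of each pair, 1 point per library, with group mean and SD; the circle marks 2-HD 1. For mbpa 4 of the 5 treated libraries lie at 40.7 to 43.3%, below all WT libraries, and 2-HD 1 lies at 50.0%.

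Within groups, several of the 9 genes went up and down together from library to library. Over the 13 libraries, deviations of log2 CPM from the group means had a Pearson r of 0.935 for mpz and olig1 and of 0.860 for mbpa and mbpb. The values for olig1 with olig2 and plp1a with plp1b were 0.563 and 0.0944. Without 2-HD 1 these 4 values were 0.898, 0.859, 0.515 and 0.339. With the mean of the sheath genes, sox10 had an r of 0.266 and erbb3b of 0.0190. The sheath gene plp1a, itself part of that mean, had an r of 0.307 with it and of -0.0228 with mbpa. These values describe libraries that share preparation and total RNA, and mpz with olig1 was picked as the highest pair.

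By the same measure, the 5 genes most like the mean of the 5 sheath genes, among 15867 considered, were cx23, gja8b, rs1a, prph2a and otc, with r of 0.949, 0.945, 0.945, 0.919 and 0.916 (Spearman's rho 0.945, 0.945, 0.929, 0.868 and 0.835). Of these, gja8b is a connexin gene of the lens, and rs1a and prph2a are genes of photoreceptors. Without WT 3 and 2-HD 1, the libraries farthest from the median, r was between 0.873 and 0.924. These are the highest values of all genes considered. The likeness did not extend to all group differences: cx23 had log2 fold changes of 0.07 in KO and -0.03 with 2-HD (adjusted p = 0.824 and 0.884), while rs1a fell in both, by 0.62 and 0.54 (adjusted p = 0.0398 and 0.00566).

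The sheath genes were also set beside neuronal genes, since myelin wraps axons. Of 26 neuronal genes, 24 fell with 2-HD and 2 did not pass, beside 19.7% of all genes lower, with a median log2 fold change of -0.49. Falls included sncb (141 ± 11.99 CPM with 2-HD and 234 ± 14.8 CPM in WT), syt1a of synaptic vesicles (304 ± 24.3 and 488 ± 29.1 CPM) and syn2a (85.9 ± 8.31 and 127 ± 5.35 CPM; SD, n = 5 each). The summed neuronal level was 2794 to 3483 CPM with 2-HD and 4209 to 4635 CPM in WT, with none of the 26 genes at 0.

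The 5 sheath genes summed to 191 ± 31.4 CPM with 2-HD and 248 ± 27.1 CPM in WT (SD, n = 5 each). Per 100 neuronal CPM that is 5.49 to 6.91 with 2-HD and 4.84 to 6.02 in WT, ranges that overlap, and 5.73 to 7.24 in KO. The highest treated value, 6.91, was that of 2-HD 1, and the other treated libraries lay between 5.49 and 6.15. Relative to neuronal reads, summed sheath reads were no lower on average in treated libraries (5.997 ± 0.570) than in WT (5.50 ± 0.466), which is a description with no test. The sum is mostly mbpb (81.5 CPM with 2-HD) and mbpa (63.6 CPM), and single genes differed. The log2 fold changes of mpz (-0.71) and mbpa (-0.57) were below the neuronal median of -0.49. Those of plp1b (-0.34), mbpb (-0.19) and plp1a (-0.12) were above it. In RNA of larvae, a mixture of tissues, fewer cells of a type and less RNA per cell cannot be told apart, and the part of the neuronal decline in the myelin result was not tested.

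**Figure D4:**
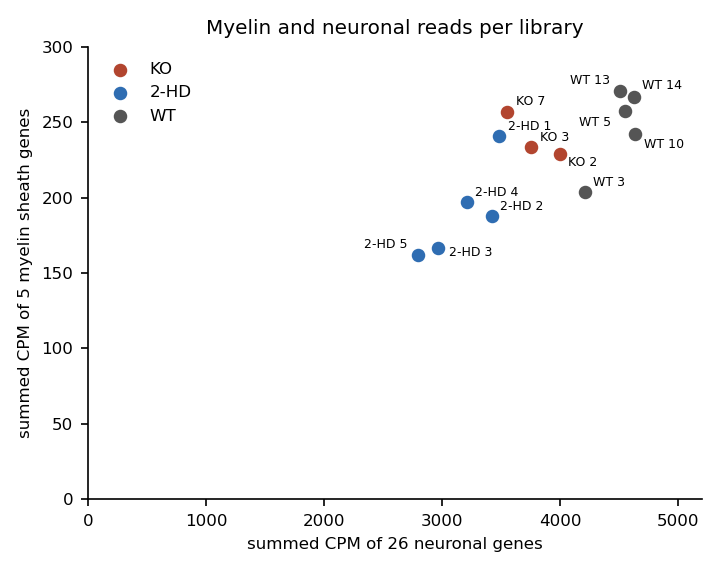
Summed CPM of the 5 sheath genes against summed CPM of 26 neuronal genes, 1 point per library. On the neuronal axis 2-HD libraries lie lowest (2794 to 3483), KO libraries between (3551 to 3998) and WT libraries highest (4209 to 4635); on the sheath axis 2-HD 1 (241) lies among KO and WT.

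Axonal genes beside the sheath fell as well. Of 18 entries for proteins of the node of Ranvier and its flanks, 12 fell with 2-HD and 6 did not pass, beside 19.7% of all genes lower. By adjusted p the first were ank2b, an ankyrin gene (log2 fold change -0.62), nfasca, a neurofascin gene (-0.56), and cntnap2a, of the segment next to the paranode (-0.54). The other neurofascin gene of the list, nfascb, was not in the count table. Radial and Muller glia, which are also glia of brain and retina, had 12 of 21 genes lower. Of the rest, 1 was higher (slc1a3a, 0.38) and 8 did not pass, beside the same 19.7% of all genes lower. Among these falls were the glutamine synthetase gene glula (357 ± 23.2 CPM with 2-HD and 558 ± 96.4 CPM in WT), the glutamate transporter gene slc1a2b (-0.60) and cx43 (-0.52).

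Other genes of myelin membrane and lipids did not move one way. Of 24 measured, 7 rose, 4 fell and 13 did not pass with 2-HD, a share of 45.8% called beside 42.4% of all genes, and the median was 0.11. Without 2-HD 1, 5 rose and 5 fell, beside 5325 and 4643 of 22060 genes, and the median of the list was 0.04. Higher were ugt8 and gal3st1b, whose enzymes make the myelin lipids galactosylceramide and sulfatide (29.8 ± 2.61 and 20.9 ± 3.01 CPM for ugt8, 2.61 ± 0.560 and 1.33 ± 0.138 CPM for gal3st1b, with 2-HD and in WT), and cd9b, a tetraspanin gene (log2 fold change 0.71). Lower were tspan2a, a tetraspanin gene of oligodendrocytes (41.3 ± 9.33 and 71.3 ± 6.98 CPM), nkx6.2, a homeobox gene (-0.55), and fabp7a (-0.56), which the list of radial glia also holds. Paralogues, named after their values were seen, did not move with them: cd9a was lower (-0.34) and tspan2b higher (0.40). The paralogue gal3st1a, at 7.17 CPM with 2-HD and 6.18 CPM in WT, did not pass (edgeR adjusted p = 0.162). Also among the 13 that did not pass were mag (-0.22), cldnk (-0.30), cnp (0.10) and enpp6 (0.01), named after their values were seen.

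Regulators of the glial lineage had 12 of 27 entries lower with 2-HD, 5 higher and 10 not passing, with a median of -0.24, beside 19.7% of all genes lower and 22.7% higher. Without 2-HD 1, 15 were lower and 5 higher, beside 4643 and 5325 of 22060 genes. The lowest adjusted p-values among the falls were those of pou3f2a (log2 fold change -0.63), pou3f2b (-0.56), both POU factors of neural progenitors and glia, and tcf7l2 (-0.54), a Wnt effector in oligodendrocyte differentiation. Among the rises, sox9b (0.62), sox8b (0.92) and sox9a (0.33) had the lowest adjusted p-values. Their relative sox8a, named after its value was seen, had a log2 fold change of -0.47 and did not pass (adjusted p = 0.139).

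Receptors and axonal signals were divided, with 9 of 29 higher, 9 lower and 11 not passing, beside 22.7% of all genes higher and 19.7% lower. Among the receptor genes of the family of erbb3b, erbb2, whose protein pairs with Erbb3 to signal, stood at 23.9 ± 2.09 CPM with 2-HD and 10.3 ± 2.98 CPM in WT (log2 fold change 1.21, SE 0.17, adjusted p = 0.000126). The paralogue erbb3a rose as well, at 51.9 ± 4.14 CPM with 2-HD and 36.7 ± 3.14 CPM in WT (0.50), while erbb4a fell (-0.42, adjusted p = 0.00771) and erbb4b, at 0.15, did not pass (adjusted p = 0.414). Of the 4 neuregulin genes in the list, nrg3b was lower, at 15.9 ± 1.64 CPM with 2-HD and 26.5 ± 2.45 CPM in WT (-0.74), as were nrg2b, at 17.2 ± 2.57 CPM with 2-HD and 27.3 ± 1.85 CPM in WT (-0.67), and nrg1 (-0.44). The fourth, nrg2a, at 0.07, did not pass (adjusted p = 0.745). The genes erbb4a, erbb4b, nrg1 and nrg2a were named after their values were seen. Also higher were cspg4, the NG2 proteoglycan gene of oligodendrocyte precursors and pericytes (1.16), and adam17b, a protease gene (0.66), and lower was lingo1b (-0.67), of a family of neuronal membrane proteins. Chosen after their values were seen, pdgfra (0.45) and gpr17 (0.59), both of oligodendrocyte precursors but pdgfra also of connective tissue, rose. Not all genes of the lineage rose: olig2 fell, and of the 27 regulators 12 were lower and 5 higher. Among those lower were nkx2.2a (-0.43), znf536 (-0.35), sox5 (-0.26) and myt1a (-0.21), also named after their values were seen.

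**Figure D5:**
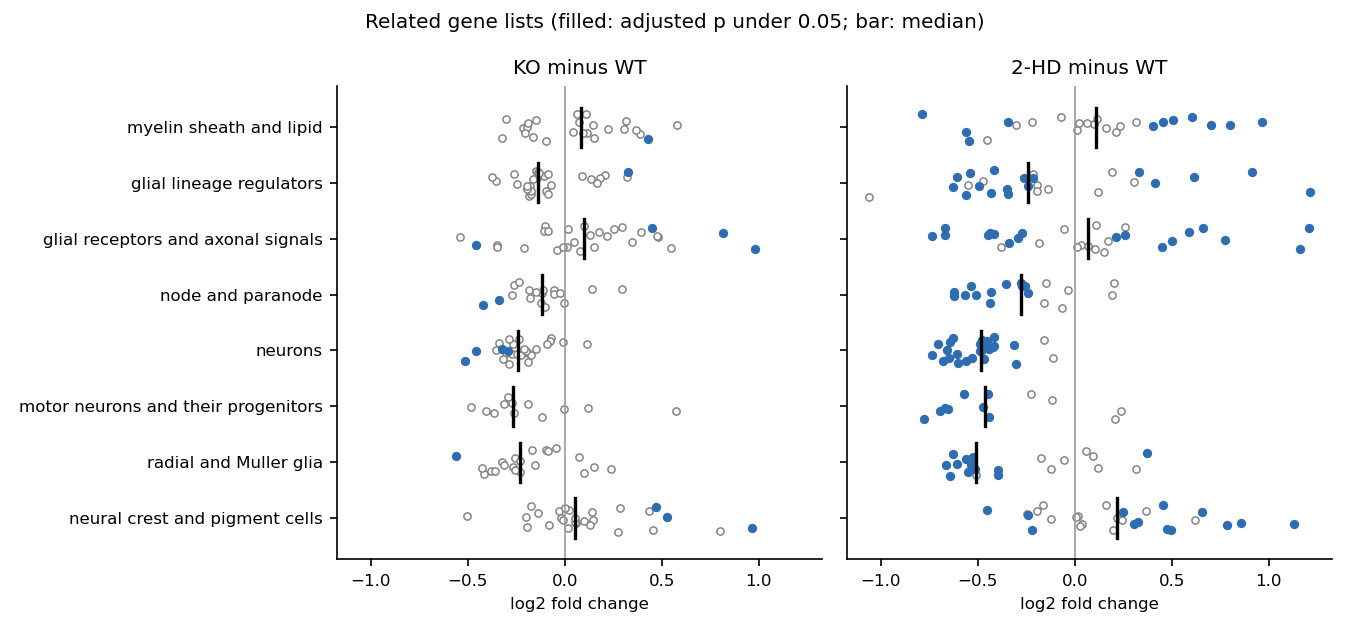
Log2 fold changes of the genes of 8 related lists in KO (left) and with 2-HD (right) against WT, 1 point per gene, filled where the adjusted p is under 0.05, with the list median as a bar. With 2-HD the medians were lowest for radial and Muller glia (-0.51), neurons (-0.49) and motor neurons (-0.46) and highest for neural crest and pigment cells (0.22).

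In the knockout the share called in these lists lay between 0% for motor neurons and 15.4% for neurons, beside 5.97% of all genes. It was 13.8% for receptors and signals and 11.1% each for the node and the neural crest. For sheath and lipid genes it was 4.17%, for regulators 3.70% and for radial and Muller glia 4.76%, each below the share of all genes. Of receptors and signals 3 rose, erbb2 (20.4 ± 5.59 CPM in KO and 10.3 ± 2.98 CPM in WT; log2 fold change 0.98), cspg4 (0.82) and erbb3a (50.0 ± 10.8 and 36.7 ± 3.14 CPM; 0.45), and nrg2b fell (-0.46). Of the sheath and lipid list ugt8 rose (28.1 ± 2.78 and 20.9 ± 3.01 CPM; 0.43), and of the regulators sox9a (0.32). Falls were those of the axonal genes cntn1a (-0.42) and ank2b (-0.34) and of 4 of 26 neuronal genes. Among the neuronal falls were sncb (-0.46), sncga (-0.51) and syt1a (-0.29). In the list of radial and Muller glia rlbp1a fell (-0.56). Its paralogue rlbp1b, named after its value was seen, was at -0.26 and did not pass (edgeR adjusted p = 0.365). Of the pigment list kita (0.97), tyr (0.53) and snai2 (0.47) rose.

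The 12 motor neuron genes had 0 calls in KO by edgeR, against 5.97% of all genes. At an unadjusted p under 0.05 in edgeR there were 8, against 24.8% of all genes. DESeq2 called 1 of the 12, beside 2363 of 29084 genes. Of the 16 genes of these lists called in KO, 0 were called without KO 3, 0 without KO 7 and 14 without KO 2. With WT 10, WT 13 or WT 14 left out in turn, 3, 4 and 10 of the 16 were called. With 2-HD 2 or 2-HD 4 left out, which enter through the shared spread, 9 and 6 of the 16 were called. Both comparisons use the same WT libraries.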

How the data were processed

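The deposited table holds whole-number read counts per gene symbol, not normalized by the authors. For these counts the submitters' processing notes name the build GRCz11 and list featureCounts 2.0.1, the aligner HISAT2 2.2.1, and Trim Galore 0.6.7. Annotation, strand setting and handling of multiply mapped reads are not given in the sources used here, so counts of paralogues and overlapping genes are uncertain. Later entries of a repeated symbol were kept apart.

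The main tool was edgeR 4.0.16, run in R 4.3.3. The filter was filterByExpr with a minimum count of 10, scaling was TMM, and CPM values use the TMM factors. A quasi-likelihood fit with 3 group means took all 13 libraries, and p-values were adjusted by Benjamini-Hochberg over 22158 genes. Standard errors came from the fold change and its F statistic. Log2 CPM used a prior count of 2. Related lists were counted with no set test. Named from each list were up to 3 called genes per direction with the smallest adjusted p. Likeness was computed for genes with a mean log2 CPM of 1 or more and without a clone-based symbol.

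The 9 genes, the lists and the tests were chosen with earlier results of these data known. Alternatives were RLE and upper-quartile scaling, DESeq2 1.42.0, other count filters, fits of 2 groups, omitted libraries, a replicate block and a test against a 1.2-fold change. List counts and likeness without 2-HD 1 were added after seeing the data. The steps were tested on simulated counts. Pairs of libraries within a group differed by more than sampling noise (chi-square per degree of freedom 4.73 to 24.8), so none was treated as a duplicate.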

Additional observations from a re-analysis of the deposited data

Results flagged for a closer look

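Over 32 groups of 5 libraries, covering the 9 genes, aldh3b1, the 3 pair shares and the myelin and neuronal sums with their ratio, 3 had a library whose gap to its nearest neighbour exceeded Dixon's 95% critical value of 0.710 of the range. Chance gives about 1 in 20 such groups. The 3 gaps were 0.711 to 0.726 of the range, close to the critical value. The library 2-HD 1 stood high for mbpa, with 93.3 CPM, while the remaining 2-HD libraries had 49.5 to 62.1 CPM. Its share of mbpa in the reads of mbpa and mbpb was 50.0%, against 40.7 to 43.3% in the others. Both values of 2-HD 1 rest on the same mbpa reads, so they are not independent. For mbpa the library WT 3 was low, with 73.5 CPM, and the remaining WT libraries had 96.5 to 105 CPM.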

How the results depend on the processing

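In KO against WT, edgeR called 1322 genes. The count was 2363 with DESeq2, 102 with only these groups in the fit, 65 with a test against a 1.2-fold change, and 3 to 2071 without 1 library. It was 0 with the replicate block in edgeR, with 1489 at an unadjusted p under 0.05. Of the 9 genes, 0 were called, and 1 with DESeq2 and at most 1 (0 to 1) without 1 library. With 2-HD against WT, 9398 genes and 7 of the 9 were called, against 4187 and 3 with the replicate block and 4839 and 2 against a 1.2-fold change. In KO against 2-HD, 1547 genes and 1 of the 9 were called. These counts were 2383 and 2 with DESeq2, 81 to 3229 and 0 to 3 without 1 library, 3494 and 3 without WT 14 and 2-HD 1, 300 and 0 with the replicate block, and 38 and 0 against a 1.2-fold change. The cause of these shifts was not tested.

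Signs turned only for values that were not called. In KO against WT, log2 fold changes without 1 library ran from -0.0184 to 0.0695 for mbpb, -0.0820 to 0.0403 for plp1a and -0.217 to 0.0158 for plp1b, and plp1a was at 0.16 with the replicate block. The share of olig1 differed by -0.0023 points, with 0.0098 as a log2 ratio and -1.18 to 0.944 without 1 library. That of plp1a ran from -0.297 to 3.52 against WT, and from -4.54 to 0.0214 in KO against 2-HD. RLE and upper-quartile scaling kept the calls of all 9 genes.

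Deviations of same-numbered libraries correlated at -0.00416 to 0.264 over 5 pairs. Libraries with different numbers were not set beside them, so these values cannot decide whether replicate numbers pair the samples. The block used the 7 libraries that share a number, with WT 3 numbered by its description. By the number 1 in its title WT 3 would pair with 2-HD 1, which was not run, so the block values and these correlations depend on that choice. With the replicate block the 2-HD calls of plp1b, olig1, olig2 and sox10 were lost (adjusted p = 0.136, 0.0658, 0.0750 and 0.278).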
